A study of Mus musculus with 1 sample.

Results

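The genes of the insulin-like growth factor (IGF) system were described in cultured ventral midbrain (VM) glia of the mouse: the ligands Igf1 and Igf2, the receptors Igf1r and Igf2r, and the binding protein genes Igfbp2, Igfbp3, Igfbp4, Igfbp5, Igfbp6 and Igfbp7. They were chosen by gene symbol, and each of the 10 genes had 1 row among the 23282 rows of the table. The mixed glia were taken at postnatal day 5 from mice of an outbred strain, ICR(CD-1), and were grown in medium with 10% serum before subculture. The study asked what inhibition of serum- and glucocorticoid-regulated kinase 1 does to such glia. The data here were 1 RNA-seq library that the labels placed in the control group, and its column name adds the vehicle DMSO. The sample labels mention toxins together with the inhibitor, but do not say whether the control cells received any. Inhibitor-treated glia were not analysed here, so no contrast between groups was made. With no replicate, none of the values has an error between cultures.

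IGF1 and IGF2 are small secreted proteins related to insulin. Both activate the tyrosine kinase receptor IGF1R, which signals through insulin receptor substrates to PI3K and AKT, whereas IGF2R takes up IGF2 for degradation and also carries lysosomal enzymes. Secreted IGF binding proteins hold the ligands outside the cell and set how much of them reaches a receptor. In the brain, IGF1 is known as a growth and survival factor for neurons and oligodendrocytes, and microglia are among its sources.

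Each gene had a normalised read count from the authors, and these values summed to 27569507. The number of sequenced reads behind them is unknown, so no counting interval is given. A row was called detected at a value of at least 10, which held for 67.2% of all rows. The median of the detected rows was 469. Markers of several cell types were present: the 6 microglia markers ranged from 984 (Tmem119) to 32619 (C1qa), the 6 astrocyte markers from 604 (S100b) to 17222 (Gfap), and the 6 mesenchymal or meningeal markers from 455 (Lum) to 26499 (Acta2). Among oligodendrocyte lineage markers, Sox10 was at 48 and Mbp at 10966. Endothelial markers ranged from 0 (Tek) to 2427 (Flt1), and neuronal markers from 6 (Syt1) to 3802 (Stmn2). Which of these cells carried the IGF transcripts was not tested, and in a bulk sample fewer cells of a type and less RNA per cell cannot be told apart.

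The sequences in front of 4 of the genes are shown because these genes mark the range of the system: Igf1 as the ligand with the higher level, Igfbp7 and Igfbp6 as the binding protein genes with the highest and the lowest level per length of exon, and Igfbp4 as the gene with a TATA box close to its start. Each line gives the 250 bases before the 1 start site that the RefSeq table lists for the gene (GRCm38.p6), read along the gene's own strand. Annotated Igf1 transcripts also begin upstream of this site. The 1 annotated Igfbp6 transcript begins downstream of the site listed for that gene, at 102144362. Capitals mark matches on either strand. The TATA box, a place where the basal transcription machinery is known to bind, was searched as TATAAA. The GC box, known as a binding site of SP1, was searched as GGGCGG. The CCAAT box, known as a binding site of NF-Y, was searched by the letters of its name.
Igf1, chr10:87860861-87861110, plus strand: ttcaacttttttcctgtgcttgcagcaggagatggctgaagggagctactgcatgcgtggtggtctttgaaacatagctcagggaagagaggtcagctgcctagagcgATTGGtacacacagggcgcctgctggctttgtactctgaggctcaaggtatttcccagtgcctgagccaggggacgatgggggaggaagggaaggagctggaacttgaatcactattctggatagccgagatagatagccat
Igfbp7, chr5:77408046-77408295, minus strand: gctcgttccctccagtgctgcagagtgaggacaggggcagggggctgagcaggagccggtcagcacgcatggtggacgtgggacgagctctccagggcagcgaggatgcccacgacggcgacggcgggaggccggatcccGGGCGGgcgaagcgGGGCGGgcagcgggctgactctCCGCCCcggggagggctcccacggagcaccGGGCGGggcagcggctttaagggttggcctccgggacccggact
Igfbp4, chr11:99040994-99041243, plus strand: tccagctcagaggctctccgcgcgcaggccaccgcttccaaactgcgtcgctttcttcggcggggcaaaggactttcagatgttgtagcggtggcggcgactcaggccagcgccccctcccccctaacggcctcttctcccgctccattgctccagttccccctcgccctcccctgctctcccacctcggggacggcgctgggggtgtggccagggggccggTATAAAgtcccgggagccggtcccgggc
Igfbp6, chr15:102143936-102144185, plus strand: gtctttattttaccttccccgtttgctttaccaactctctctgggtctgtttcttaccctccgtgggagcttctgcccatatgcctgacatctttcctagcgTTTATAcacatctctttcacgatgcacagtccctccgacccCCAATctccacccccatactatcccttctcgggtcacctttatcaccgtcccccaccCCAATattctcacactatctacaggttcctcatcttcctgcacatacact
In Igfbp7, the GC box matched at 4 places and no TATA box was found. In Igfbp4, the TATA box began at position -28, counted from the start. In Igfbp6, a reverse match to the TATA box and 2 matches to the CCAAT box stood in the window, while Igf1 held 1 reverse match to the latter.

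All 10 genes were detected, against the 67.2% of rows given above. Of the 10, 6 stood at or above the 90th percentile of detected rows, a limit that 6.72% of all rows reached, and 9 exceeded the median of the detected rows, as 33.6% of all rows did. The same 6 genes, Igf1, Igfbp2, Igfbp3, Igfbp4, Igfbp5 and Igfbp7, were at or above the 90th percentile when values were divided by exon length, which 6.76% of the rows with a known length reached. The 10 genes held 0.251% of the sum of all values. Binding protein genes accounted for 78.2% of this amount, ligands for 16.6% and receptors for 5.23%. Per kilobase of exon, with all annotated exons of a gene joined, the 6 binding protein genes made up 94.0% of the summed level. This share was not computed with other gene lengths.

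**Figure D1:**
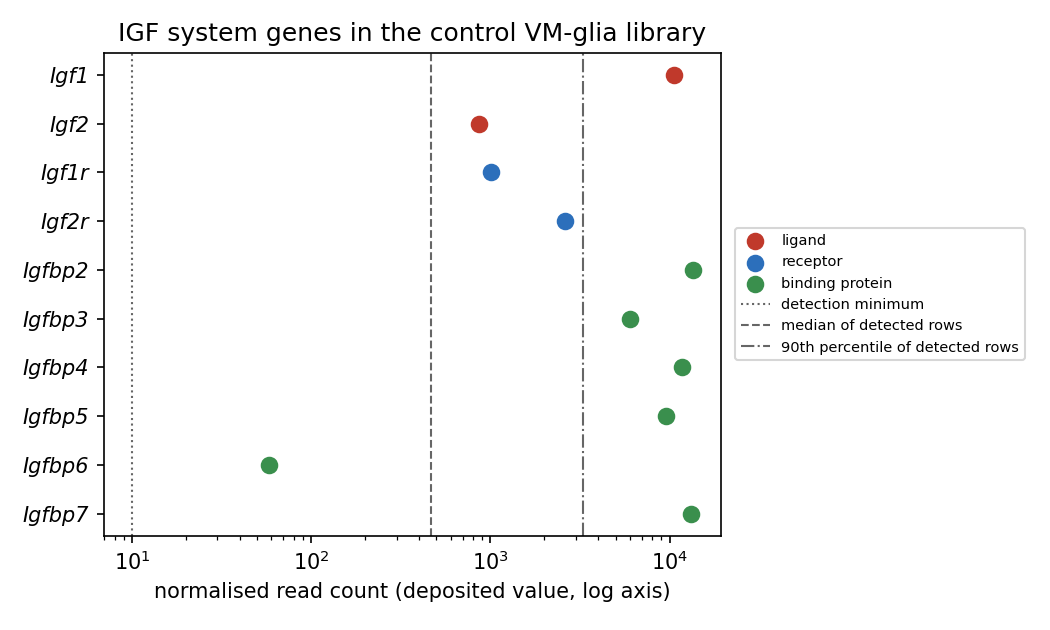
Deposited normalised read count (log axis) of each of the 10 genes in the control library, coloured by role, 1 point per gene. Vertical lines mark the detection minimum of 10, the median of detected rows (469) and their 90th percentile (3274), which 6 of the genes exceed. Igfbp6, at 58, is the 1 gene below the median.

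Igf1, whose product is the main activating ligand, had a value of 10624. That was 385 per 1000000 of the sum, and it stood above 97.8% of detected rows. The gene (ENSMUSG00000020053.18) lies on chromosome 10 (87858265 to 87937042, plus strand, GRCm38). Its 8 annotated transcripts are all protein-coding and differ in length, and their joined exons span 9904 bases. Per kilobase of these exons its level was 1073, above 91.4% of detected rows. The nearest protein-coding gene on the higher side, Pmch, was at 37.

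Igf2, the ligand best known for fetal growth and expressed from the paternal allele in most mouse tissues, had a value of 863. This was 31.3 per 1000000 and above 64.3% of detected rows. Igf2 (ENSMUSG00000048583.16) lies on chromosome 7 (142650766 to 142666816, minus strand) with joined exons of 5723 bases, and its level per kilobase was 151. Another annotated gene on the same strand, Gm49394, shares 3596 of these bases and had no row, so reads of both cannot be told apart. The antisense gene Igf2os overlaps 98 exon bases of Igf2 and was at 2. The neighbouring insulin gene Ins2 was listed at 0.

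Between the ligands, Igf1 exceeded Igf2 by 7.11 times per kilobase of joined exons and by 12.3 times in deposited values. The ratio was 8.24 with the longest transcript, 14.7 with the mean protein-coding transcript and 14.3 with the coding sequence, so Igf1 was the higher ligand on every scale.

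The receptors were lower than 5 of the 6 binding protein genes per kilobase. Igf1r, the signalling receptor, had a value of 1007, which is 36.5 per 1000000 and above 68.2% of detected rows. It lies on chromosome 7 (67952827 to 68233668, plus strand, ENSMUSG00000005533.10). Its joined exons are the longest of the 10 genes at 16791 bases, and its level per kilobase was 60.0, above 38.0% of detected rows. On that scale Igf1r was 1.71 times below the median of 102, although its deposited value was 2.15 times above the median of deposited values.

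Igf2r, the clearance receptor for IGF2 and a carrier of mannose 6-phosphate tagged enzymes, had a value of 2616, or 94.9 per 1000000. This stood above 87.1% of detected rows. The gene (chromosome 17, 12682406 to 12769664, minus strand, ENSMUSG00000023830.14) has 9308 bases of joined exons, and its level per kilobase was 281. Airn, the noncoding antisense RNA that starts inside Igf2r and is known to silence the paternal copy, was at 39 and shares no exon base with it. Between the receptors, Igf2r was higher than Igf1r by 4.69 times per kilobase of joined exons. With the coding sequence as length the ratio was 1.43, so the direction held while the size depended on the length used.

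The insulin receptor Insr, which can pair with IGF1R into hybrid receptors, had a value of 1304 and a level of 94.9 per kilobase. The ratio of Igf1r to Insr was 0.632 per kilobase of joined exons and 0.772 in deposited values. It was 0.339 with the mean protein-coding transcript, and Igf1r was the lower gene on each scale.

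The binding protein genes covered the widest range. Igfbp7, which encodes a matrix protein that binds IGFs with low affinity, had a value of 13232 (480 per 1000000). It lies on chromosome 5 (77349240 to 77408041, minus strand, ENSMUSG00000036256.13) and has only 1209 bases of joined exons. Its level was 10945 per kilobase, 107 times the median and above 99.1% of detected rows. Polr2b, a gene on the opposite strand with a value of 2924, overlaps 85 of the exon bases, and the strand setting of the counting was not stated.

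Igfbp2, a carrier with a preference for IGF2 that is common in brain and cerebrospinal fluid, had the highest value of the 10 genes before division by length, 13525 (491 per 1000000). The gene (chromosome 1, 72824503 to 72852474, plus strand, ENSMUSG00000039323.18) has 1847 bases of joined exons. Its level per kilobase was 7323, above 98.7% of detected rows. Igfbp7 was higher than Igfbp2 by 1.49 times with joined exons and by 1.07 times with the longest transcript, but the ratio was 0.971 with the mean protein-coding transcript and 0.953 with the coding sequence. These genes were therefore not separated in level.

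Igfbp5, whose product binds to extracellular matrix, is the neighbour of Igfbp2. The pair lie 5457 bases apart and point towards each other, with Igfbp5 on the minus strand (chromosome 1, 72857932 to 72874884, ENSMUSG00000026185.8). Igfbp5 had a value of 9520, or 345 per 1000000, and its level was 1585 per kilobase over 6006 bases of joined exons. Per kilobase Igfbp5 stood above 94.2% of detected rows, so both neighbours were at or above the 90th percentile. Igfbp2 was still higher than Igfbp5, by 4.62 times per kilobase of joined exons and by 1.26 times with the coding sequence.

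A second pair of binding protein genes did not share a level. Igfbp3, the main carrier of IGFs in serum, had a value of 6024 (219 per 1000000) and 1925 per kilobase over 3130 bases, above 95.2% of detected rows. It lies on chromosome 11 (7206086 to 7213923, minus strand, ENSMUSG00000020427.11). Igfbp1, a carrier made mainly by liver, lies 3539 bases away on the opposite strand, also pointing towards its neighbour, and was listed at 0.

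Igfbp4, an inhibitory carrier that the protease PAPP-A cleaves, had a value of 11757 (426 per 1000000). The gene (chromosome 11, 99041244 to 99054392, plus strand, ENSMUSG00000017493.12) has 4416 bases of joined exons and a level of 2662 per kilobase, above 96.6% of detected rows. Its longest transcript shares a stretch of at least 100 bases at 95% identity or more with transcripts of 7 other genes, with the longest stretch at 144 of 3831 bases. Igf2 was the only other gene of the 10 with such a stretch, through Gm49394.

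Igfbp6, a carrier with a strong preference for IGF2, was the exception among the binding protein genes. Its value was 58, or 2.10 per 1000000, above 16.6% of detected rows and 8.09 times below their median. It lies on chromosome 15 (102144362 to 102149511, plus strand, ENSMUSG00000023046.6), where its 1 annotated transcript has 1112 bases. With that short length its level per kilobase was 52.2, above 35.2% of detected rows and 1.96 times below the median. The next gene, Soat2, was at 17, and Spryd3 on the other side was at 1455.

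**Figure D2:**
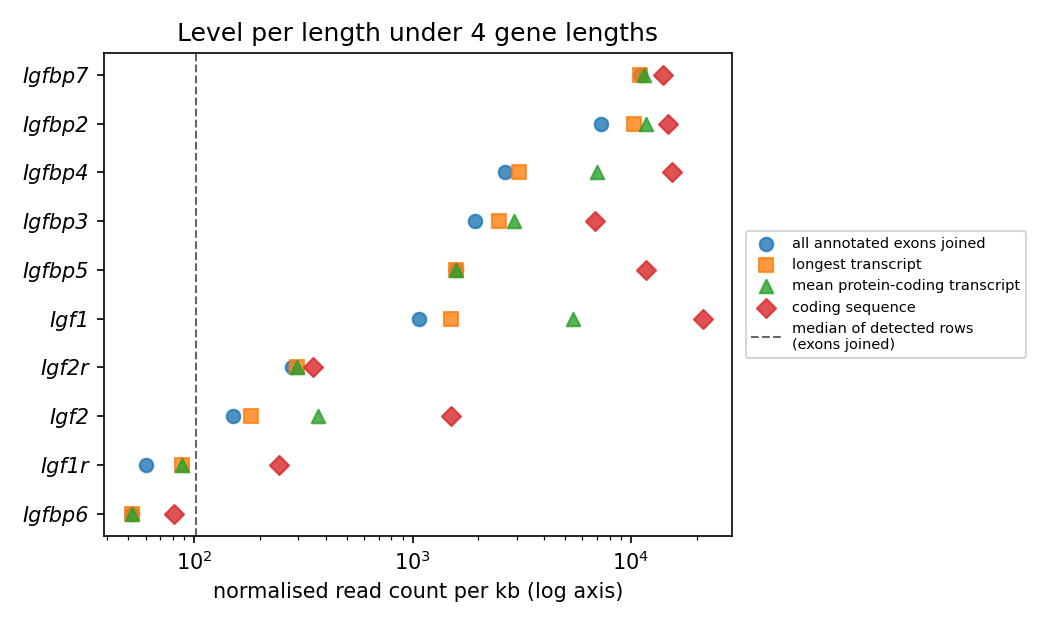
Normalised read count per kilobase (log axis) of each of the 10 genes, with 1 marker for each of 4 gene lengths, in the order given by joined exons. Igf1 moves from 1073 with joined exons to 21463 with the coding sequence, while Igfbp6 is lowest with every length. The dashed line marks the median of detected rows with joined exons, 102, and does not apply to the other lengths.

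Per kilobase of joined exons the order was Igfbp7, Igfbp2, Igfbp4, Igfbp3, Igfbp5, Igf1, Igf2r, Igf2, Igf1r and Igfbp6. Of the 9 pairs of neighbours in this order, 4 kept their direction with all 4 lengths. These were Igfbp4 above Igfbp3, Igf1 above Igf2r, Igf2 above Igf1r, and Igf1r above Igfbp6. Igf1 was the gene most affected by length: it was in place 6 with joined exons and with the longest transcript, in place 4 with the mean protein-coding transcript and in place 1 with the coding sequence. Without replicates no pair can be said to differ beyond the spread between cultures.

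Within the binding protein genes, Igfbp7 made up 44.7% of the summed level per kilobase and Igfbp2 29.9%. Igfbp4 followed with 10.9%, Igfbp3 with 7.86%, Igfbp5 with 6.47% and Igfbp6 with 0.213%. Without division by length, Igfbp2 (25.0%), Igfbp7 (24.5%), Igfbp4 (21.7%) and Igfbp5 (17.6%) were closer together. The share of Igfbp6 was below 1% under each scaling.

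**Figure D3:**
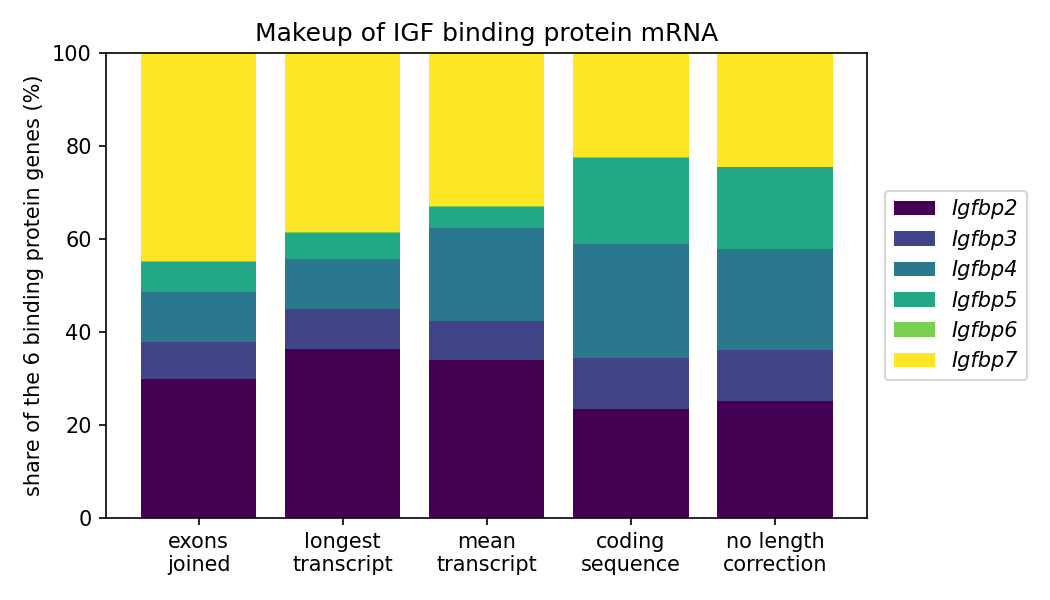
Share (%) of each of the 6 binding protein genes in their summed level, with 1 stacked bar for each of 4 gene lengths and 1 for deposited values. Igfbp7 and Igfbp2 are the largest parts with joined exons (44.7% and 29.9%), whereas Igfbp4 and Igfbp5 widen with the coding sequence (24.5% and 18.6%).

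The other genes of the pathway were examined by lists, and no test was made with 1 library. Among 7 further genes of the insulin family and other carriers, 2 were detected, against 67.2% of all rows. The detected genes were Insr and the binding protein-like gene Igfbpl1 at 178. Insrr, a receptor related to INSR, was at 6, and Igfals, which stabilises IGF complexes in serum, was at 3. Ins1, Ins2 and Igfbp1 were listed at 0.

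Of 11 matrix and secreted proteins related to the IGF carriers, 10 were detected and 2 were at or above the 90th percentile. Of all rows, 67.2% were detected and 6.72% reached that limit. The 2 high genes were Ccn1 at 10220 and Ccn2 at 4348, which encode matricellular proteins and are named Cyr61 and Ctgf in the table. The secreted protease gene Htra1 was at 2078, and Ccn6 was listed at 0. The median of the list per kilobase was 120, near the 102 of detected rows.

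All 12 genes for proteases that can cut binding proteins, and their inhibitors, were detected, against 67.2% of all rows. Of the 12, 3 were at or above the 90th percentile, Adam9, Plau and Plat, against 6.72% of all rows. Per kilobase 2 reached it, Adam9 and Plau, against 6.76% of the rows with a known length. The membrane protease Adam9 was at 6773, and the plasminogen activators Plau and Plat were at 5269 and 3417. Stc2, which encodes an inhibitor of PAPP-A, was lowest at 45. Pappa, Pappa2 and Stc1, named after their values were seen, were at 725, 46 and 150. The list median was 50.7 per kilobase, below that of detected rows, while Igfbp4, the carrier cut by PAPP-A, was at 2662 per kilobase.

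All 16 adaptors and kinases below the receptor were detected, against 67.2% of all rows. Of them 2, Akt1 at 8212 and Grb2 at 3815, were at or above the 90th percentile, against 6.72% of all rows. Pik3r1, the regulatory subunit of PI3K, was at 2909. The receptor substrate Irs4 was lowest at 32, and Irs1 and Irs2, named after their values were seen, were at 195 and 237. Per kilobase, Irs1 was at 21.3 and Irs2 at 37.5, both under the level of Igf1r (60.0), while Grb2 was at 1308. The median of this list was 656, above the 469 of detected rows, but per kilobase it was 87.5, below 102.

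The partners of IGF2R in the mannose 6-phosphate pathway were all above the median of detected rows (7 of 7, against 33.6% of all rows). M6pr, the smaller mannose 6-phosphate receptor, was at 5374. The enzymes that make the tag had values of 3092 for Gnptab, 803 for Gnptg and 1459 for Nagpa. The adaptors Gga1, Gga2 and Gga3, which sort these receptors into vesicles, were at 1758, 1360 and 832. Per kilobase M6pr was at 1289, above Igf2r at 281.

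H19, the noncoding RNA that is expressed from the maternal allele next to Igf2, had a value of 4471 and a level of 1817 per kilobase. It exceeded Igf2 by 12.1 times per kilobase of joined exons, by 10.7 times with the longest transcript and by 5.18 times in deposited values. The IGF2 mRNA-binding protein genes were at 1114 for Igf2bp3, 628 for Igf2bp2 and 27 for Igf2bp1. Of the 6 imprinted or RNA-binding partners only Igf2os was not detected, while 67.2% of all rows were detected.

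**Figure D4:**
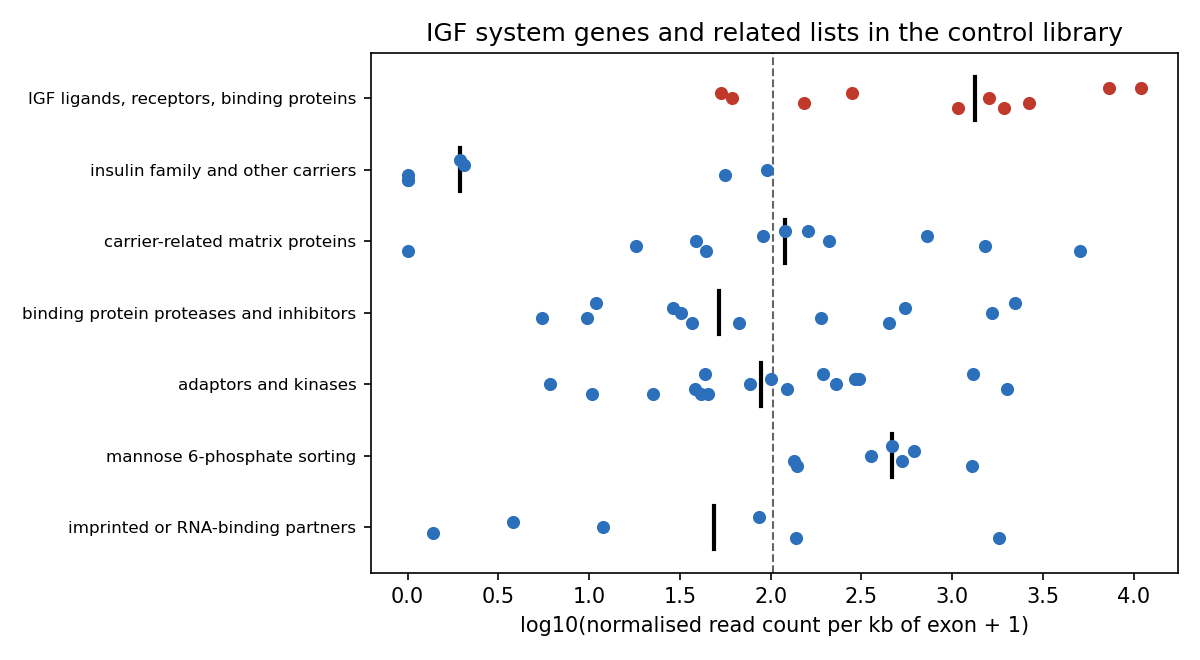
Level per kilobase on the log10(value + 1) scale for the 10 IGF genes (red) and the genes of 6 related lists (blue), 1 point per gene, with the list median as a black bar and the median of detected rows as a dashed line. The IGF genes have a median of 1329 per kilobase, against 467 for the mannose 6-phosphate list and 87.5 for adaptors and kinases.

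The promoter windows of the 10 genes, from 250 bases before to 50 bases after each start in RefSeq, gave 14 windows, of which 4 belonged to Igf2 and 2 to Igfbp2. The G + C content was 76.0% for Igf1r, 73.3% for Igfbp7, 71.7% for Igfbp3, 71.3% for Igfbp4 and 70.7% for Igf2r, against a median of 60.0% over the 14764 windows of detected genes and of 52.7% over all 32851 windows. Igfbp6 had 49.7% and Igf1 52.3%, so the windows of a gene with a low and of a gene with a high level both lay under these medians. Of the 14 windows, 8 exceeded the median of detected genes. The ratio of observed to expected CpG was above the median of detected genes, 0.716, in 7 of the 14 windows, and above that of all windows, 0.384, in 11. It was 1.11 for Igf1r and 0.307 for Igf1. The Igf1r window (67952007 to 67952306) ends before the annotated start of the gene at 67952827. The last 40 bases of 9 of the 14 windows were in an annotated transcript of their gene, and those of the Igf1r window were not.

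The GC box was found in 6 of the 14 windows (42.9%), in Igf2, Igf1r, Igf2r, Igfbp2 and Igfbp7. Of all windows 35.7% held it, as did 58.7% of the windows of detected genes. The TATA box was in 2 windows (14.3%), those of Igfbp4 and Igfbp6, against 13.6% of all windows and 7.92% of those of detected genes. The Igfbp6 match was on the reverse strand at position -148, far from the listed start. The CCAAT box was in 3 (21.4%), one each of Igf1, Igf2 and Igfbp6, against 37.4% both of all windows and of those of detected genes. The E-box, searched as CACGTG, stood in 2 windows, those of Igf2r and Igfbp2, against 7.15% of all windows and 9.33% of those of detected genes. The AP-1 motif, searched as TGACTCA, stood in 1 window of Igfbp2, against 5.2% and 4.19%. Factors of the FOXO family act below AKT, and their motif, searched as GTAAACA, was in 0 of the 14 windows, while 3.65% of all windows and 2.65% of those of detected genes held it. Both strands were searched, and the start sites in use in these cells were not measured.

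**Figure D5:**
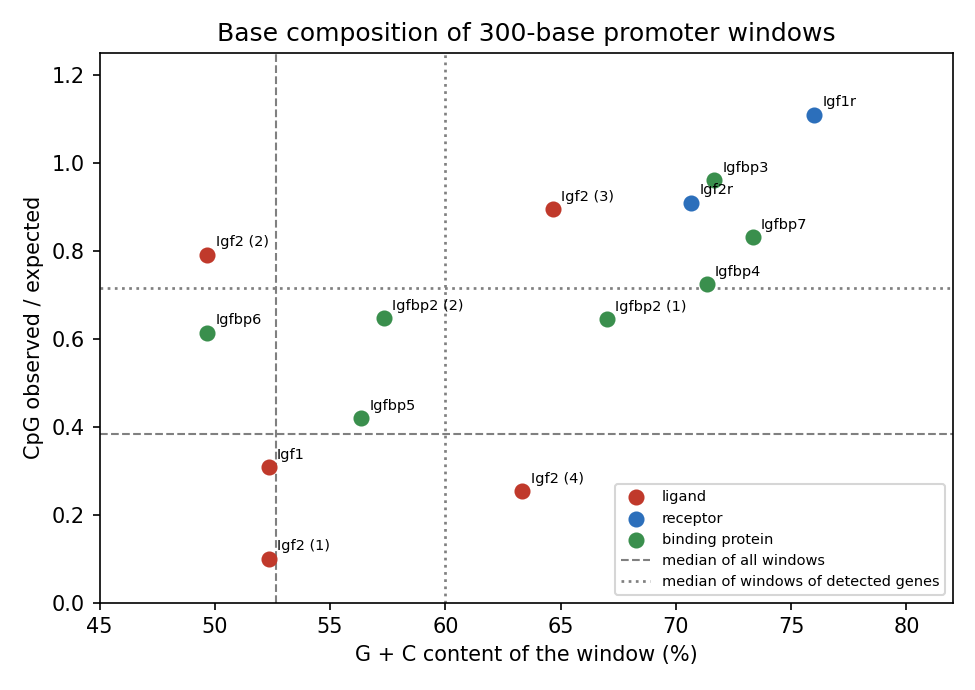
G + C content (%) against the ratio of observed to expected CpG for the 14 promoter windows of the 10 genes, coloured by role, with the window number where a gene has several. Dashed lines mark the medians of all windows (52.7% and 0.384) and dotted lines those of windows of detected genes (60.0% and 0.716). Igf1r lies highest on both axes, with a window that ends before the annotated start of the gene. Igf2 window 1 has the lowest CpG ratio (0.0999).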

How the data were processed

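Total RNA was converted to a library with the SMARTER mRNA-Seq kit. The study's methods state that the authors trimmed bases with a quality under 20, mapped reads to GRCm38/mm10 with STAR and counted reads on exons of RefSeq Release 105 genes with HTSeq-count, and the submitters' processing notes list TopHat and edgeR. The deposited values were whole numbers that the authors described as normalised read counts, and here they were treated as a score, close to counts in scale, because the normalisation, the strand setting and the treatment of multi-mapped reads were not given in the sources used here. A normalisation that acts differently on different genes would change ranks and ratios.

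Percentiles gave the share of detected rows (value of 10 or more) that lay lower, and a percentile of 90 or more was called high. Gene models came from GENCODE M21 (GRCm38), which is not the annotation the authors counted on, and 22889 rows (98.3%) matched by symbol or older symbol. Values per kilobase used the joined exons of a gene, with the longest transcript, the mean protein-coding transcript and the coding sequence as alternatives. Other alternatives were detection minima of 1 and 100, protein-coding genes only, and totals without Rn45s or the 10 highest rows. Shared sequence was searched with BLAST 2.17.0 (95% identity, 100 bases). All 10 genes were matched to RefSeq promoter windows (GRCm38.p6). Planned protein features were not computed, because no protein sequences were used here. The percentile step was tested on simulated data. All 10 genes were named, and from each pathway list every gene of lists with up to 8 genes, or otherwise the 3 highest, the lowest and those at 0. Some marker and neighbouring genes are not reported here. The members and lists were chosen with earlier results of these data known. Python 3.11.15, numpy 2.4.6, pandas 2.3.3 and matplotlib 3.10.9 were used.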

Additional observations from a re-analysis of the deposited data

How the results depend on the processing

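No paired analysis was possible because there was 1 library, and no value could be set against a spread between cultures. A value was taken as moved when it changed by more than 1.5 times. The number of detected genes was 9 at a minimum of 100, without Igfbp6, and 6 genes stayed at or above the 90th percentile under each alternative. The 20 values per 1000000 recomputed for single genes did not move, whereas 13 of 30 levels per kilobase did. The 40 recomputed percentiles were judged only by the limit of 90, and no gene crossed it. Some still changed by more than 1.5 times. The percentile of Igf1r was 68.2, and 38.0 when values were divided by exon length. That of Igfbp6 was 16.6, against 28.3 at a minimum of 1, 0 at a minimum of 100 and 35.2 with division by exon length. The ratio of Igf1 to Igf2 was 12.3 in deposited values, 14.3 with the coding sequence and 14.7 with the mean protein-coding transcript, a length chosen for ratios and shares after seeing the data. The ratio of Igf2r to Igf1r was 2.60 in deposited values and 1.43 with the coding sequence, and that of Igf1r to Insr was 0.339 with the mean protein-coding transcript. In deposited values the share among binding protein genes was 21.7% for Igfbp4, 17.6% for Igfbp5, 0.107% for Igfbp6 and 24.5% for Igfbp7. With the coding sequence these shares were 24.5%, 18.6%, 0.129% and 22.4%, and Igfbp4 had 20.1% with the mean protein-coding transcript. With the coding sequence, 4 of 9 neighbouring pairs kept their order. These shifts follow from the gene length used. Relative to the median of detected rows, the median of the insulin family list turned from 0.0064 to 1.58, and that of the imprinted or RNA-binding list from 0.711 to 1.34, when only members at 10 or more were kept, so both crossed from below to above 1. Per kilobase, adaptors and kinases crossed to the lower side, from 1.40 to 0.854, and the imprinted or RNA-binding list was at 0.467.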
